A study of Mus musculus with 2 samples.

Results

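The 5 Ikaros family genes, Ikzf1 to Ikzf5, were examined for binding of TCF12 in CH12.LX, an immortalised line from a mouse B-cell lymphoma (strain B10.H-2aH-4bp/Wts). TCF12, also called HEB, is a basic helix-loop-helix factor of the E protein class, which binds E-boxes, short DNA motifs of the form CANNTG. Chromatin immunoprecipitation with an antibody to TCF12 and sequencing (ChIP-seq) was done on 2 biological replicates, which make up 1 group. The cells carried no labelled treatment or genotype, so there is no comparison between conditions and no test. Both replicates came from the same line, and a binding site in it need not be one in normal B cells. The members were the 5 genes of the family, out of 21314 protein-coding genes with a known strand. Each gene's window ran from 10 kb upstream of its mm10 5' end to its 3' end, and every peak whose summit lay inside was taken. In all, 45 of the 35848 peaks of the authors' optimal list, which passed the IDR step, a threshold on how well peak ranks repeat, lay in these windows.

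The family encodes zinc finger transcription factors. In Ikaros, a set of fingers near the amino end binds DNA at sites with a GGGAA core. Another set near the carboxyl end joins the proteins of the family to themselves and to each other. Ikzf1 encodes Ikaros, needed for lymphocyte development, and Ikzf3 encodes Aiolos, which acts from the later B-cell precursor stages on. Ikzf2 encodes Helios and Ikzf4 encodes Eos, both best known from T cells and regulatory T cells, and Ikzf5 encodes the more broadly expressed Pegasus. Binding was measured here, not expression, and nothing in these values says whether any of the genes is active in the line.

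The members fell into 2 sets by the number of TCF12 peaks. Ikzf1 had 21 peaks and Ikzf3 had 19, together 40 of the 45. Ikzf4 had 3, and Ikzf2 and Ikzf5 had 1 each. All 5 members thus had at least 1 peak, which 57.2% of all genes also had, so the presence of a peak is common. A count of 19 or more was reached by 50 genes, or 0.235% of all. Per 10 kb of window there were 2.14 peaks at Ikzf1, 2.08 at Ikzf3, 0.614 at Ikzf4, 0.314 at Ikzf5 and 0.0602 at Ikzf2. Both densities of the upper set stood more than 3 times above that of the next member.

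**Figure D1:**
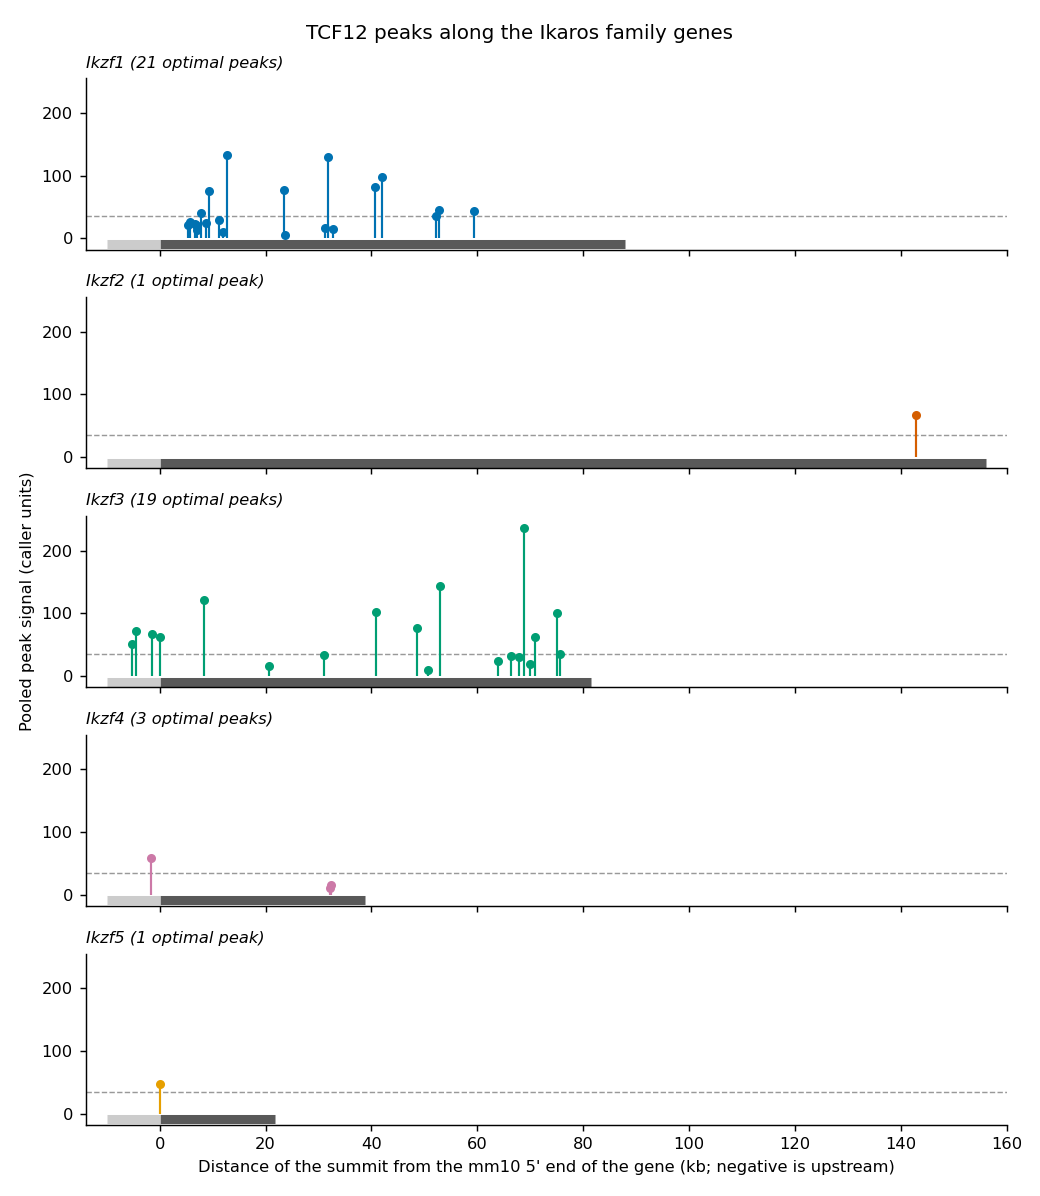
Each stem is 1 peak of the optimal list, placed by the distance of its summit from the gene's mm10 5' end in kb (x axis, negative is upstream) with its pooled signal in the caller's units as height (y axis). The dark bar is the gene, the pale bar the 10 kb upstream, and the dashed line the median signal of all optimal peaks (35.0). Peaks spread along Ikzf1 and Ikzf3, while Ikzf2 and Ikzf5 have 1 each.

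Window length did not order the members in this way. The Ikzf2 window was the longest at 166 kb and held 1 peak. Those of Ikzf1 and Ikzf3 measured 98.0 kb and 91.4 kb, that of Ikzf4 48.8 kb and that of Ikzf5 31.9 kb. Among the 36 genes with at least as many peaks as Ikzf1, itself included, 6 had a window no longer than its own. For Ikzf3 the like count was 9 of 50, and the median window of those 50 genes was 189 kb. Ikzf2 was not unusual among long genes, since 54.1% of the 1353 genes with a window of its length or more, itself included, had at most 1 peak.

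**Figure D2:**
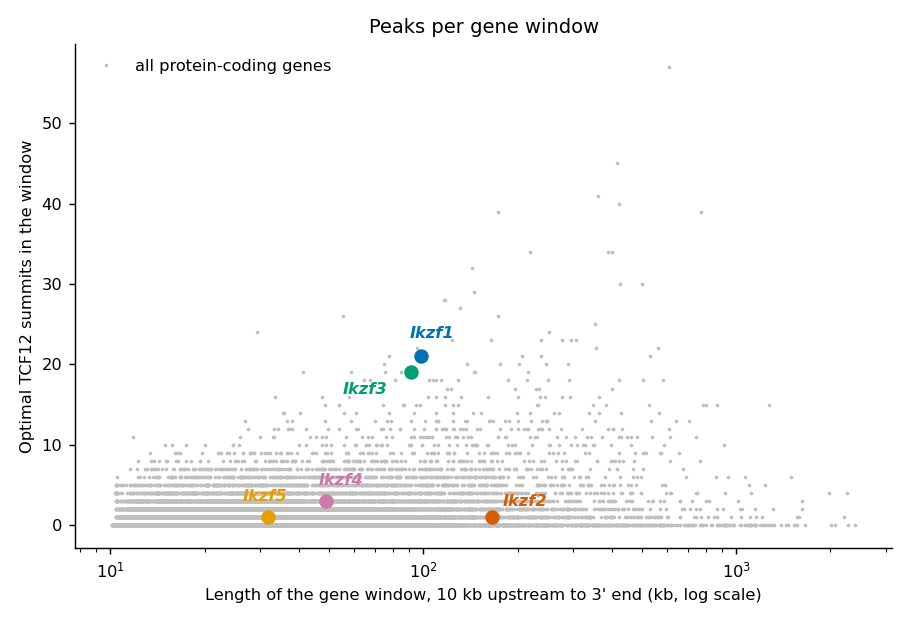
Each grey point is 1 of the 21314 protein-coding genes, by the length of its window in kb (x axis, log scale) and the number of optimal summits in it (y axis), with the 5 members in colour. Ikzf1 (21 peaks in 98.0 kb) and Ikzf3 (19 in 91.4 kb) lie above most genes of like length, and Ikzf2 (1 in 166 kb) lies near the bottom.

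Each replicate's own relaxed list, 300000 peaks called with background included, also had its highest counts at Ikzf1 and Ikzf3. The optimal list came from the same replicates through the IDR step, so this is not separate support. Replicate 1 held 85 relaxed peaks in the Ikzf1 window and replicate 2 held 72. In the Ikzf3 window the counts were 66 and 60. Per 10 kb this was 8.68 and 7.35 at Ikzf1 and 7.22 and 6.56 at Ikzf3, against medians over all genes of 1.84 and 1.81. Ikzf4 had 19 and 11 relaxed peaks, or 3.89 and 2.25 per 10 kb, above the same medians. Ikzf2, with 18 and 23 peaks (1.08 and 1.38 per 10 kb), and Ikzf5, with 5 and 4 (1.57 and 1.26 per 10 kb), lay below the all-gene medians in both replicates.

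**Figure D3:**
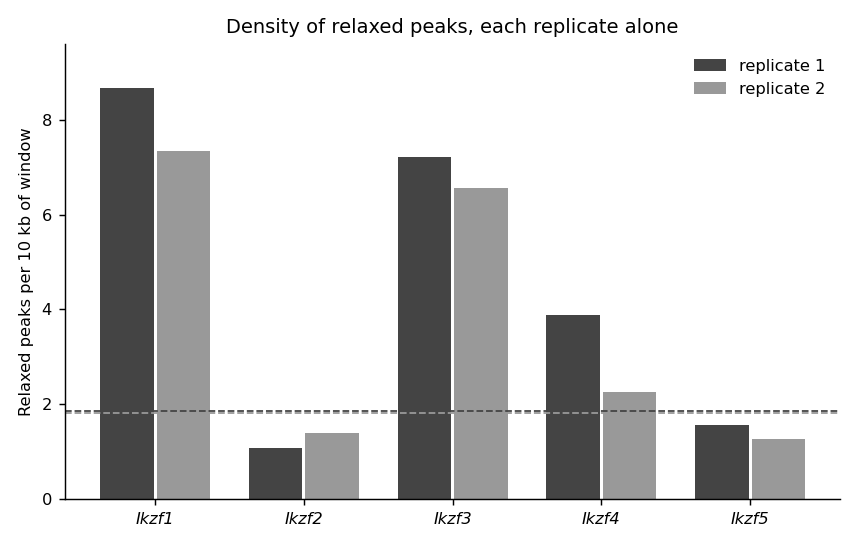
Bars give the relaxed peaks per 10 kb of window (y axis) in replicate 1 (dark) and replicate 2 (pale) for each member, and dashed lines the medians over all protein-coding genes (1.84 and 1.81). Ikzf1 and Ikzf3 stand above the lines and above the other members in both replicates, and Ikzf2 and Ikzf5 below the lines.

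Ikzf3, the Aiolos gene (chr11:98464610-98546031 on mm10, minus strand), held the strongest peak of the family. It lay 68.8 kb downstream of the 5' end and 12.7 kb before the 3' end, at chr11:98477071-98477416, with a pooled signal of 236. The signal is the peak caller's own value and has no stated unit. In replicate 1 the signal there was 158 and in replicate 2 it was 82.7. Only 0.633% of all optimal peaks were stronger, and 0.671% of all genes had a stronger top peak. It was also the only one of the 45 with an interval of its own length, 346 bp, where the other 44 had the 384 bp that 94.3% of all optimal peaks share.

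A signal of 100 was also passed by 4 further Ikzf3 peaks. The peak 52.9 kb downstream had 144 in the pooled list, 70.0 in replicate 1 and 78.3 in replicate 2, and was thus slightly higher in replicate 2. The peak 8.38 kb downstream had 120, with 67.5 and 51.8 in the replicates. Those 40.9 kb and 75.1 kb downstream both had 101, with 60.3 and 38.9 at the first and 53.9 and 48.8 at the second. The 19 peaks ranged from 9.26 to 236 with a median of 61.3, and 12 of them lay above the median of all optimal peaks, which was 35.0. At or above the upper quartile of the list, 58.6, were 10 of them.

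The peaks of Ikzf3 were spread over the whole window. In the 3' part of the gene, 8 summits lay within 11.9 kb, from 63.8 to 75.7 kb downstream, among them the strongest peak and the one 75.1 kb downstream. The promoter peak had its summit 3 bp downstream of the 5' end, with a pooled signal of 62.7. Its replicate signals were 55.7 and 12.7, so it was 4.39 times higher in replicate 1, where the median ratio over all optimal peaks was 1.66. The 12.7 is that of the strongest overlapping replicate 2 peak, with its summit 157 bp away. A weaker replicate 2 peak, with its summit 52 bp away, had 6.54, so this ratio depends on which is taken. Upstream lay 3 peaks. The one 1.47 kb upstream had a signal of 67.0, with 27.9 in replicate 1 and 32.3 in replicate 2.

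The other two upstream peaks lay close to the start of a neighbour. The summit 5.15 kb upstream (signal 51.6, with 31.3 and 32.6 in the replicates) was 85 bp from the 5' end of Zpbp2, a gene on the opposite strand that encodes a zona pellucida binding protein of sperm. The summit 4.48 kb upstream (72.1, with 48.4 and 27.2) was 589 bp from the same end. A peak list does not say which gene a site acts on. Leaving out all 3 upstream peaks, 16 remained between the 5' and 3' ends of Ikzf3. The authors' conservative list, another product of the IDR step, also had 19 peaks in the window, but they were not the same set. Of the 19 optimal peaks, 14 overlapped a conservative one, and the promoter peak of 62.7 and the upstream one of 51.6 were among the 5 that did not. Of the conservative peaks, 5 overlapped no optimal one, with signals from 14.2 to 26.5.

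The sequence under the Ikzf3 peaks was read on mm9, the only build with a genome at hand, from the authors' separate mm9 peak list, which held 14 peaks in the window. Its strongest Ikzf3 peak (signal 337, with 1.22% of mm9 peaks higher) lay 68.8 kb downstream in intron 6 of the GENCODE vM1 transcript. The 101 bases centred on its summit and on those of the next 2 peaks are shown, 5' to 3' on the plus strand, because they are the gene's strongest in that list. Capitals mark every match, on either strand, to the motifs searched: the E-boxes CAGCTG and CACCTG and any other CANNTG, the Ikaros core TGGGAA, the EBF1 core CCCNNGGG, ETS GGAAGT, RUNX TGTGGT, the octamer ATGCAAAT, NF-kappaB GGGANTTTC and AP-1 TGANTCA. The first 2 E-boxes are cases of CANNTG, and TGGGAA and GGAAGT can overlap. TGGGAA is narrower than the GGGAA core named above. A GGGAA after a base other than T was not searched for and stays in lower case.
Ikzf3, 68.8 kb, chr11:98338542-98338642: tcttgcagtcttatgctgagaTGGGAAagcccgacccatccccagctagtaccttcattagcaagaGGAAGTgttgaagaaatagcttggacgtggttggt
Ikzf3, 52.9 kb, chr11:98354398-98354498: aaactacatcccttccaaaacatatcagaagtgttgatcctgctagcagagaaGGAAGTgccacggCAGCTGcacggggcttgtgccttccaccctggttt
Ikzf3, 8.37 kb, chr11:98398928-98399028: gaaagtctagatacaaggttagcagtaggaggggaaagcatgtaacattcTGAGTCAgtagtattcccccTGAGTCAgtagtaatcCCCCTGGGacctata
The window of the strongest peak held no CANNTG, but held 1 TGGGAA and 1 GGAAGT. The site 52.9 kb downstream (signal 192, intron 3) had a CAGCTG centred 18.5 bp from the summit and a GGAAGT. The site 8.37 kb downstream (signal 142, intron 1) had no CANNTG and 2 copies of TGAGTCA besides an EBF1 core match. A match is a description of the letters, not proof of a bound site.

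Ikzf1, the Ikaros gene (chr11:11684962-11772930, plus strand), had 21 optimal peaks, and all lay inside the gene. Which of Ikzf1 and Ikzf3 had more depended on the list: Ikzf3 led by 15 to 12 with a score of at least 830, by 19 to 17 in the conservative list and by 14 to 13 on mm9. These Ikzf3 counts include peaks upstream of the gene, where Ikzf1 had none. With the score they were those 1.47, 4.48 and 5.15 kb upstream, in the conservative list those 1.47 and 4.48 kb upstream, and on mm9 there were 4. So the leads are not of peaks inside the gene. None of the 21 optimal Ikzf1 peaks had its summit within 1 kb of the 5' end, and none upstream of it. The strongest was 12.6 kb downstream at chr11:11697400-11697783, with a pooled signal of 134, 93.3 in replicate 1 and 44.0 in replicate 2. A second, 31.8 kb downstream at chr11:11716608-11716991, had 129, with 70.0 and 57.4. The next were 98.3 (42.0 kb; 65.3 and 28.1 in the replicates) and 81.7 (40.8 kb; 54.3 and 29.7). Each of these was higher in replicate 1.

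At or above the upper quartile there were 2 more Ikzf1 peaks. The peak 23.5 kb downstream had 76.3, with 53.0 in replicate 1 and 21.9 in replicate 2. That 9.38 kb downstream had 75.3, with 41.0 and 35.2. The peaks ranged from 5.79 to 134 with a median of 29.6, and 10 of 21 were above the median of all optimal peaks. A score of 1000, the top of the deposited scale, was given to 11 of the 21 at Ikzf1 and to 13 of the 19 at Ikzf3, against 53.9% of all optimal peaks.

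Within 7.22 kb, from 5.41 to 12.6 kb downstream, stood 11 of the Ikzf1 summits. Several of these were close enough to share a replicate peak. Counting the strongest overlapping one each time, the 21 optimal peaks took their replicate values from 17 different peaks in replicate 1 and 17 in replicate 2. Counting every overlapping relaxed peak, 22 lay beneath them in replicate 1 and 19 in replicate 2. The conservative list had 17 peaks at Ikzf1, all overlapping optimal ones, and 16 of the 21 optimal peaks overlapped one of them. At Ikzf3 the 19 peaks took their values from 19 and 18 different replicate peaks, with 24 and 22 overlapping in all. The closest Ikzf1 pair was 199 bp apart, and the closest Ikzf3 pair 646 bp apart.

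The 5' end of Ikzf1 depends on which start is used. The RefSeq promoter table gave 2 starts for the gene, at 11685925 and at 11690177 of chromosome 11, both downstream of the annotated 5' end of the gene. The first optimal peak (signal 21.4, with 23.1 and 18.6 in the replicates) lay 196 bp downstream of the second start and 4448 bp downstream of the first. Within 1 kb of the gene's 5' end, replicate 1 had no relaxed peak and replicate 2 had 2, the stronger with a signal of 11.7 at 359 bp upstream. That value was above the median of 3.49 of the whole replicate 2 list, in which 7.37% of peaks were higher. No optimal peak was called at this 5' end.

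In some Ikzf1 peaks the columns of the list differed from each other. The peak 23.7 kb downstream had the lowest signal of the family, 5.79, yet a score of 1000. Its summit was 199 bp from that of the peak of 76.3, and both overlapped the same replicate peaks. Of the 1567 optimal peaks with a signal under 10, 270 had a score of 1000, and this was the only one among the members. The peak 59.4 kb downstream had 42.9 in the pooled list and 35.3 in replicate 1, and overlapped no relaxed peak in replicate 2, where the nearest summit was 1436 bp away. The weak peak 12.0 kb downstream (9.19) also overlapped peaks in replicate 1 only. The stronger, of 15.5, had its summit 226 bp away, and the other, of 7.79, had its summit 6 bp away.

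On mm9 the Ikzf1 window held 13 peaks, 12 in introns and 1 in a coding exon. Their strongest had a signal of 162, at 12.6 kb, in intron 1. The 3 windows shown are the strongest peak, the second strongest and the only Ikzf1 site with CAGCTG, on the plus strand of mm9 with capitals as above.
Ikzf1, 12.6 kb, chr11:11597530-11597630: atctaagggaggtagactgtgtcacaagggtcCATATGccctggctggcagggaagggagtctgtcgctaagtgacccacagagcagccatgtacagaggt
Ikzf1, 31.8 kb, chr11:11616753-11616853: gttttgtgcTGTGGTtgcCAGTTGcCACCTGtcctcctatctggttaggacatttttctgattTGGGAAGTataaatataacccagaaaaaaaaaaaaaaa
Ikzf1, 23.5 kb, chr11:11608446-11608546: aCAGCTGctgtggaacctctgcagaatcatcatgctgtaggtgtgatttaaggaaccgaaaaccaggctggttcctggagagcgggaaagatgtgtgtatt
The strongest site held only CATATG among the motifs searched. The second (signal 144, intron 3) held CACCTG centred 22.5 bp from the summit, CAGTTG, a RUNX match and a TGGGAA that overlaps GGAAGT. In the third (signal 82.7, intron 3) the CAGCTG was 46.5 bp from the summit, near the edge of the window.

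Ikzf2, the Helios gene (chr1:69531207-69687351, minus strand), had a single peak 143 kb downstream of its 5' end and 13.2 kb before its 3' end, at chr1:69544225-69544608. Its pooled signal was 66.4, with 45.2 in replicate 1 and 26.2 in replicate 2, and 20.3% of all optimal peaks were stronger. Neither replicate had a relaxed peak within 1 kb of the Ikzf2 5' end. On mm9 it lay in intron 6 with a signal of 77.7. Its window is shown because it is the only peak of the gene, and it held CAGATG and a RUNX match but neither CAGCTG nor CACCTG.
Ikzf2, 142 kb, chr1:69590941-69591041: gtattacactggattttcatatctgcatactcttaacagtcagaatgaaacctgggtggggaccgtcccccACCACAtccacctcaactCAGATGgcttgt

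Ikzf4, the Eos gene (chr10:128630839-128669671, minus strand), had its strongest peak outside the gene. The summit was 1.68 kb upstream of the 5' end, at chr10:128671163-128671546, with a signal of 58.5, 39.5 in replicate 1 and 19.5 in replicate 2. It lay inside Suox, which encodes sulfite oxidase, 2563 bp from the 5' end of that gene, which lies on the same strand. The 2 peaks inside Ikzf4, with signals of 11.4 and 15.6, were 269 bp apart, 32.2 and 32.4 kb downstream. Both overlapped the same replicate peaks, 1 of 7.93 and 1 of 5.61 in replicate 1 and a single one of 6.84 in replicate 2, and neither overlapped a peak of the conservative list. Of all optimal peaks, 90.5% were stronger than the higher of these 2. The conservative list also had 3 peaks in the window, but only the one in Suox was shared. The other two, with signals of 29.8 and 11.9, lay 94 bp and 411 bp from the Suox 5' end, so this list had no peak inside Ikzf4.

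At the Ikzf4 5' end the replicates differed. Replicate 1 had 1 relaxed peak within 1 kb, with a signal of 33.4 at 133 bp downstream, and 3.59% of its list was higher. Replicate 2 had 2, the stronger with 6.14 at 262 bp downstream, and 16.2% of its list was higher. No optimal peak was called there. The mm9 gene model of Ikzf4 is shorter (15.1 kb against 38.8 kb on mm10) and starts further downstream, and no mm9 peak lay in the window built on it. The mm9 list did have peaks at the site inside Suox and near the mm10 Ikzf4 5' end, as read from Suox, whose model spans 4032 bp in both builds. It had none at the 5' end of Suox, where the conservative list had its other two. A peak of 70.8 lay inside Suox, 2571 bp downstream of the Suox 5' end. One of 45.4 lay 4377 bp downstream of it, and the Ikzf4 5' end on mm10 lies 4247 bp downstream of it, so this mm9 peak falls at the Ikzf4 promoter as mm10 places it.

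Ikzf5, the Pegasus gene (chr7:131388649-131410518, minus strand), had a single peak at its promoter, at chr7:131410337-131410720. The summit was 11 bp upstream of the 5' end, with a pooled signal of 46.4, 31.2 in replicate 1 and 18.1 in replicate 2. It was also 72 bp from the 5' end of Acadsb, a gene on the opposite strand for an acyl-CoA dehydrogenase of mitochondria, so the peak sits between a divergent pair. The window of Acadsb held the same peak and no other. The conservative list had a second peak in the Ikzf5 window, at chr7:131410538-131410921 with a signal of 11.7 and its summit 212 bp upstream of the 5' end.

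The RefSeq promoter table (GRCm38.p6) held 300 bases around the Ikzf5 start, from 250 before it to 50 after it, with 1 CAGCTG and no CACCTG. The 30 bases around it are shown because this is the only E-box of these kinds in the promoter. They lie on the minus strand at chr7:131410461-131410490 on mm10, with the E-box in capitals 53 bp from the peak summit.
Ikzf5: atatggcggctaCAGCTGcgacgctgacga
Of 32619 promoter windows of that length, 16.4% held CAGCTG and 33.1% held CAGCTG or CACCTG, so such a match is common. Neither of the Ikzf1 promoter windows in the table held either one.

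Most peaks of the family lay more than 1 kb from the annotated 5' end of any protein-coding gene with a known strand. Within 1 kb of some gene's 5' end lay 4 of the 45, beside 29.3% of all optimal peaks. Of these 4, the 2 at Ikzf3 and Ikzf5 named above were at the member's own 5' end and the other two near that of Zpbp2. By gene, 2 of the 5 members had such a promoter peak, where 40.6% of all genes had one. These counts use 1 annotated 5' end per protein-coding gene, and starts of other genes were not looked at. They leave out the first Ikzf1 peak, which lay 196 bp downstream of the second Ikzf1 start in the promoter table. On mm9, 22 of the 29 member peaks were intronic (75.9%), 9 of the 14 at Ikzf3 among them. Of all 23572 mm9 peaks, 33.8% were intronic in a protein-coding gene, but the member windows consist mostly of gene bodies. This favours introns, and lowers the share near 5' ends, by construction.

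The replicates were set side by side at each of the 45 peaks. Both had an overlapping relaxed peak at 42, or all but 2 at Ikzf1 and 1 at Ikzf3, where a peak of 9.26 at 50.7 kb was missing in replicate 2. Over all optimal peaks, 97.1% had both. Replicate 1 was higher at 36 of the 42, and over all optimal peaks it was higher at 85.7%. The median ratio of replicate 1 to replicate 2 was 1.78 (quartiles 1.19 to 2.41) at the member peaks and 1.66 over all. Since the scaling between replicates is not stated, no difference in binding is read from the ratio.

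The ratio varied among the peaks of a gene. It ran from 0.577 at the Ikzf1 peak 31.2 kb downstream (6.10 against 10.6) to 4.90 at the Ikzf1 peak 52.2 kb downstream (29.3 against 5.97). Across the peaks of 1 gene, Spearman's rho between the replicates was 0.788 for the 19 Ikzf1 peaks with both and 0.792 for the 18 at Ikzf3. On log2 values, Pearson's r was 0.77 and 0.78. These are descriptions over peaks that share libraries and, in part, the same replicate peak. The median ratio was 1.83 at Ikzf1 and 1.66 at Ikzf3.

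**Figure D4:**
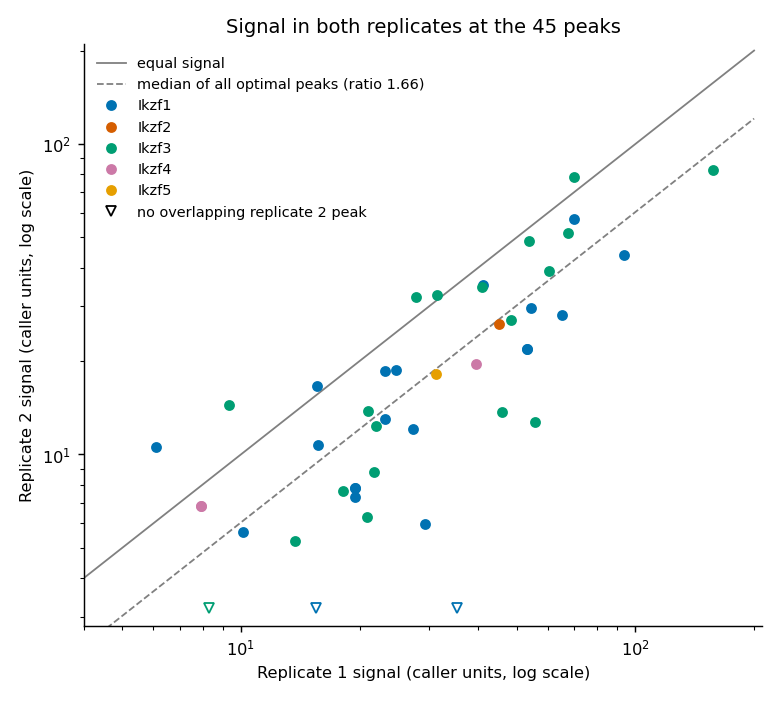
Points are member peaks by their signal in replicate 1 (x axis) and replicate 2 (y axis), in the caller's units on log scales, coloured by gene, and open triangles mark the 3 peaks with no overlapping replicate 2 peak. The solid line is equal signal and the dashed line the median ratio of all optimal peaks (1.66). Most points (36 of 42) lie below the line of equal signal.

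Motif shares at the member peaks were set beside those of all mm9 peaks. Within 50 bp of the mm9 summit, CAGCTG or CACCTG was found at 8 of 29 member peaks (27.6%, 95% Wilson interval 14.7 to 45.7%), where 31.0% of all mm9 peaks had one (7302 of 23572). Ikzf1 had 4 such peaks, Ikzf3 had 3 and Ikzf5 had its 1. Any CANNTG was found at 17 (58.6%, interval 40.7 to 74.5%), and at 52.1% of all peaks. Of the 9 member peaks with a signal over 100, 2 had CAGCTG or CACCTG, and the median signal was 48.1 with one and 81.5 without. The same split over all mm9 peaks was not made, so these values are not read as particular to the family.

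Among the other motifs, ETS GGAAGT was the most frequent at the member peaks, at 8 of 29 (27.6%, interval 14.7 to 45.7%), with 16.6% of all mm9 peaks. Of these, 5 were at Ikzf3 and 3 at Ikzf1. The Ikaros core TGGGAA was found at 4 (13.8%, interval 5.50 to 30.6%), 2 each at Ikzf1 and Ikzf3, with 8.31% of all peaks. A GGGAA after a base other than T was not counted. The EBF1 core was found at 3 (10.3%) with 7.48%, RUNX at 3 (10.3%) with 11.4%, AP-1 at 2 (6.90%) with 7.64%, the octamer at 1 (3.45%) with 2.25% and NF-kappaB at 0 of 29 (Wilson upper limit 11.7%, and 10.3% by the limit of 3 counts for a count of 0) with 1.34%. For each of these motifs the share over all peaks lay inside the interval of the member share. These intervals cover counting error only. The member windows had a median GC content of 50.5%, and all mm9 windows 56.4%.

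Genes with the most similar pattern were sought by the distance over 4 values, the number of peaks, strongest signal, summed signal and window length, each as a z-score of its log2 over the 12181 genes with a peak. Nearest to Ikzf1 were Tnfaip8, with 23 peaks and a top signal of 135, and Heg1, with 21 and 176. Nearest to Ikzf3 were Plekha2, with 19 peaks and a top of 266, and Ppp1r16b, with 18 and 201. Nearest to Ikzf2 were Il1rap and Afg1l, with 1 peak each of 67.7 and 67.5. Nearest to Ikzf4 were Abhd17c and Glud1, with 3 peaks each and tops of 56.9 and 59.4, and nearest to Ikzf5 were Smarce1 and Slc6a19, with 1 peak each of 47.0 and 46.2. The likeness is in these peak values alone.

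Genes for the proteins that work with the family had a TCF12 peak at most promoters. Ikaros and Aiolos recruit the NuRD complex and other corepressors, whose genes made up most of the partner list. All 18 genes of that list had at least 1 peak (all genes 57.2%), with a median of 2.5 peaks. A peak within 1 kb of the 5' end was found at 16 of them, beside 40.6% of all genes. The strongest were at Sin3b, a scaffold of histone deacetylase complexes (138, with 88.2 and 48.7 in the replicates), at Rbbp7, a histone-binding subunit (122, with 74.4 and 47.7), and at Mbd3, a NuRD subunit (92.0, with 58.0 and 35.0). Gatad2a, also of NuRD, had the most with 10. The promoters without one were those of Sin3a and Ctbp2. The background here, and for the ligase below, is all protein-coding genes, whatever their expression. No set of comparable genes was examined, so the counts are not read as a trait of either list.

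Cereblon is the substrate receptor of the ubiquitin ligase that degrades Ikaros and Aiolos when cells are given immunomodulatory drugs such as lenalidomide. All 5 listed genes of that ligase had a peak, as 57.2% of all genes did, and 4 had one at the promoter, as 40.6% of all genes did. Ddb1, the adaptor, had the strongest with 145 (76.3 and 69.5 in the replicates). Cul4a, the scaffold, had 94.7 (49.7 and 47.0) and Crbn, which encodes cereblon itself, had 82.1 (54.7 and 29.3).

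Of 24 genes known from textbooks to be under the control of Ikaros or Aiolos in B or T cells, 20 had a peak (all genes 57.2%) and 12 had one at the promoter (all genes 40.6%). The strongest was at Cd79b, a signalling chain of the B-cell receptor, with 209 and its summit 7 bp upstream of the 5' end (135 and 74.7 in the replicates). Igll1 and Vpreb1, which encode the surrogate light chain of the pre-B-cell receptor, shared a peak of 177 (93.1 and 81.0), which lay 1487 bp upstream of Vpreb1 and 6757 bp upstream of Igll1. Rag1 and Rag2, the recombinase genes, Cd8a, a T-cell coreceptor, and Fcer2a, the low-affinity receptor for immunoglobulin E, had none. Such genes were chosen for roles in lymphocytes, and these counts describe the lists without setting them apart from other genes of a B-cell line.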

How the data were processed

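Peaks on mm10 were called by the authors for each replicate against a control alignment, and the IDR step gave the optimal and conservative lists, per the file headers. The mm9 list rests on both replicates' alignments. Which aligner and caller made them is not given in the sources used here. The deposited signal, the caller's value, served only for ranks and descriptions. The deposited score is a scaled IDR (830 or more corresponds to 0.01 or less). Depth is unknown.

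Gene spans came from RefSeq (GRCm38.p6), and strand from its promoter table or else GENCODE vM1, for 21314 of 21627 protein-coding genes (98.6%). Where both gave a strand, 14691 of 14730 were the same. A replicate's signal at a peak is that of its strongest relaxed peak overlapping by at least 1 bp. Sequence was read from mm9 (NCBIM37), for the 23572 of 23575 peaks on chromosomes 1 to 19 and X, and no build was converted. Wilson intervals are at the 95% level. Python 3.11.15, pandas 2.3.3, numpy 2.4.6 and scipy 1.17.1 were used, and the counting was tested on simulated peaks.

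The members, gene lists and motifs were chosen with earlier results of these data known. With 1 group of 2 replicates, no test was made. Named are the members, the 2 most similar genes for each, genes whose 5' end lies within 1 kb of a member peak, and from each list up to 3 genes with the strongest peaks and those with none. Suox, Gatad2a, Sin3a and Ctbp2, and the sequences beyond each gene's strongest peak, were chosen after their values were seen. Alternatives were another list, score, window, assignment, merged summits, each replicate alone, the mm9 list and other E-box windows.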

Additional observations from a re-analysis of the deposited data

How the results depend on the processing

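Of 83 alternative values, 72 stayed within 1.5 times the main count or within the spread used, and 11 moved. For the strongest signal, the values that stayed reread the same pooled peak value, so they are no check of it. With a score of at least 830, Ikzf1 had 12 peaks and Ikzf4 had 1. The mm9 list gave 13 at Ikzf1 and 0 at Ikzf4, where its shorter gene model leaves out peaks of 70.8 and 45.4 near Suox. The conservative list gave 2 peaks at Ikzf5, and its equal counts at Ikzf3 (19) and Ikzf4 (3) held 5 and 2 peaks that overlap no optimal one. Without the upstream part, Ikzf5 had 0 peaks and so no strongest signal, and the strongest signal of Ikzf4 was 15.6, both by construction. Within 2 kb of the 5' end lay 4 member peaks in place of 2. The E-box share was 13.8% within 25 bp (18.3% of all mm9 peaks), 48.3% over the whole peak (52.4%) and 58.6% for any CANNTG (52.1%). Of the other changes, the cause was not tested. With 1 replicate alone, cut at its strongest 35530 peaks, counts were 21 and 20 at Ikzf1 and 22 and 19 at Ikzf3 (replicate 1, then 2), 4 and 2 at Ikzf4, and 1 at Ikzf2 and Ikzf5 in each. No paired analysis was possible because there is 1 group. Read depth is unknown, so how far it limits the weak peaks cannot be said.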
